A study of Mus musculus with 21 samples.

Results

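Expression of the EGF receptor family and its ligands was followed in sorted mouse pancreatic tumour cells of lines with and without an EPHA2-KO label. The genes were taken by symbol from a table of 24623 genes and numbered 10: the receptors Egfr, Erbb2 and Erbb3, the ligand genes Areg, Ereg, Hbegf, Tgfa, Btc and Epgn, and Errfi1, which encodes an inhibitor of the receptor kinases. Of the 10, 9 were at 1 TPM or more in all 21 libraries and were tested, and Epgn lay below that level in every library. TPM (transcript abundance scaled to the same total in each library) is a gene's share of all transcripts in a library after correction for transcript length, so that levels of different genes can be set side by side.

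Cells of the clones 6694c2 and 6419c5 had grown under the skin of C57BL/6 mice, which received no treatment, and tumour cells were sorted from the tumours 3 weeks after implantation. Each clone gave 3 lines: its parental line, called WT here, and 2 lines labelled EPHA2-KO, called KOA and KOB after the column letters, which no source ties to the line numbers of the labels. There were 4 libraries of each line in 6694c2 and 3 of each line in 6419c5. With 1 WT line per clone and the editing method, the number of founder cells of a line and the mouse behind each library not given, the p-values below measure only the spread between libraries of a line, which may be technical.

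Receptors of this family sit in the cell membrane as monomers and form pairs when a ligand binds, which switches on their kinase domains and, behind them, the RAS-ERK and PI3K pathways. ERBB2 binds no known ligand and acts as the preferred partner of the others, and ERBB3 has a weak kinase and signals through such a partner. The ligands are made as membrane-anchored precursors that ADAM proteases cut free, and in the pancreas EGF receptor signalling is known to take part in the change of acinar cells into duct-like cells.

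The number of reads behind a TPM value is unknown, so that precision rests on the spread between libraries. Log2(TPM + 1) of 14337 genes was fitted with limma, a linear model that shares information on the spread between genes, and a gene was called at a Benjamini-Hochberg adjusted p under 0.05. A clone's KO effect averages its KO lines and subtracts WT. Epha2, which the label names as the target, measured 245 ± 5.11 TPM for WT, 115 ± 18.3 TPM for KOA and 97.8 ± 11.4 TPM for KOB of 6694c2 (4 libraries a line, SD). In 6419c5 it measured 176 ± 13.5, 151 ± 6.05 and 197 ± 25.7 TPM (3 libraries a line, SD), and its KO effect there was not called (-0.03 ± 0.10, adjusted p = 0.819). "KO" below therefore means only that a library is labelled EPHA2-KO. The keratin genes Krt8, Krt18 and Krt19 were high in every library (at least 771 TPM each). With them, 12 markers of pancreatic duct-like tumour cells summed to 6128 to 17322 TPM. Not every marker was high: Epcam went down to 0.864 TPM in 6694c2 KOA. Libraries 1 and 2 of 6694c2 KOA stood apart from libraries 3 and 4 of that line, with Pearson's r of 0.966 to 0.972 across genes between the pairs and 0.981 and 0.988 within them. The small RNA gene Mir6236 took 22665 to 145023 TPM and was highest in 6694c2 KOB library 4 and 6419c5 WT library 3.

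In both clones the KO effect was lower for the ligand genes Areg, Ereg and Btc and higher for the receptor gene Erbb2. Each KO line showed this against WT except 6694c2 KOA, where Btc was not called (-0.20 ± 0.11, adjusted p = 0.208). In 6694c2, 5 of the 9 tested members were called lower, namely Areg, Ereg, Hbegf, Btc and Egfr, where 13.5% of all tested genes were. Erbb2 was the 1 member called higher, where 23.9% of all tested genes were (47.3% of the calls were higher after median-of-ratios scaling, against 64.0%). In 6419c5 the 3 genes Areg, Ereg and Btc were called lower, against 15.0% of all tested genes, and the 2 genes Erbb2 and Tgfa higher, against 26.5% (50.4% of the calls were higher after median-of-ratios scaling, against 63.9%). The median log2 fold change of the 9 members was -0.66 in 6694c2, where that of all tested genes was 0.07, and 0.12 in 6419c5, where that of all tested genes was 0.08. A fit that treats each line as a random effect, and so sets the KO effect against the spread between lines, called 0 members in 6694c2 (5 at an unadjusted limma p under 0.05) and only Erbb2 in 6419c5 (3 at an unadjusted p under 0.05). A limma fit with the KO lines of a clone pooled into 1 group lost the calls of Areg (adjusted p = 0.124) and Btc (adjusted p = 0.134) in 6419c5. It kept those of Ereg and Erbb2 there, and those of Areg, Ereg, Btc and Erbb2 in 6694c2. The pooled fit takes 1 spread over all 21 libraries, so differences between the KO lines of 6694c2 also enter its tests in 6419c5.

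**Figure D1:**
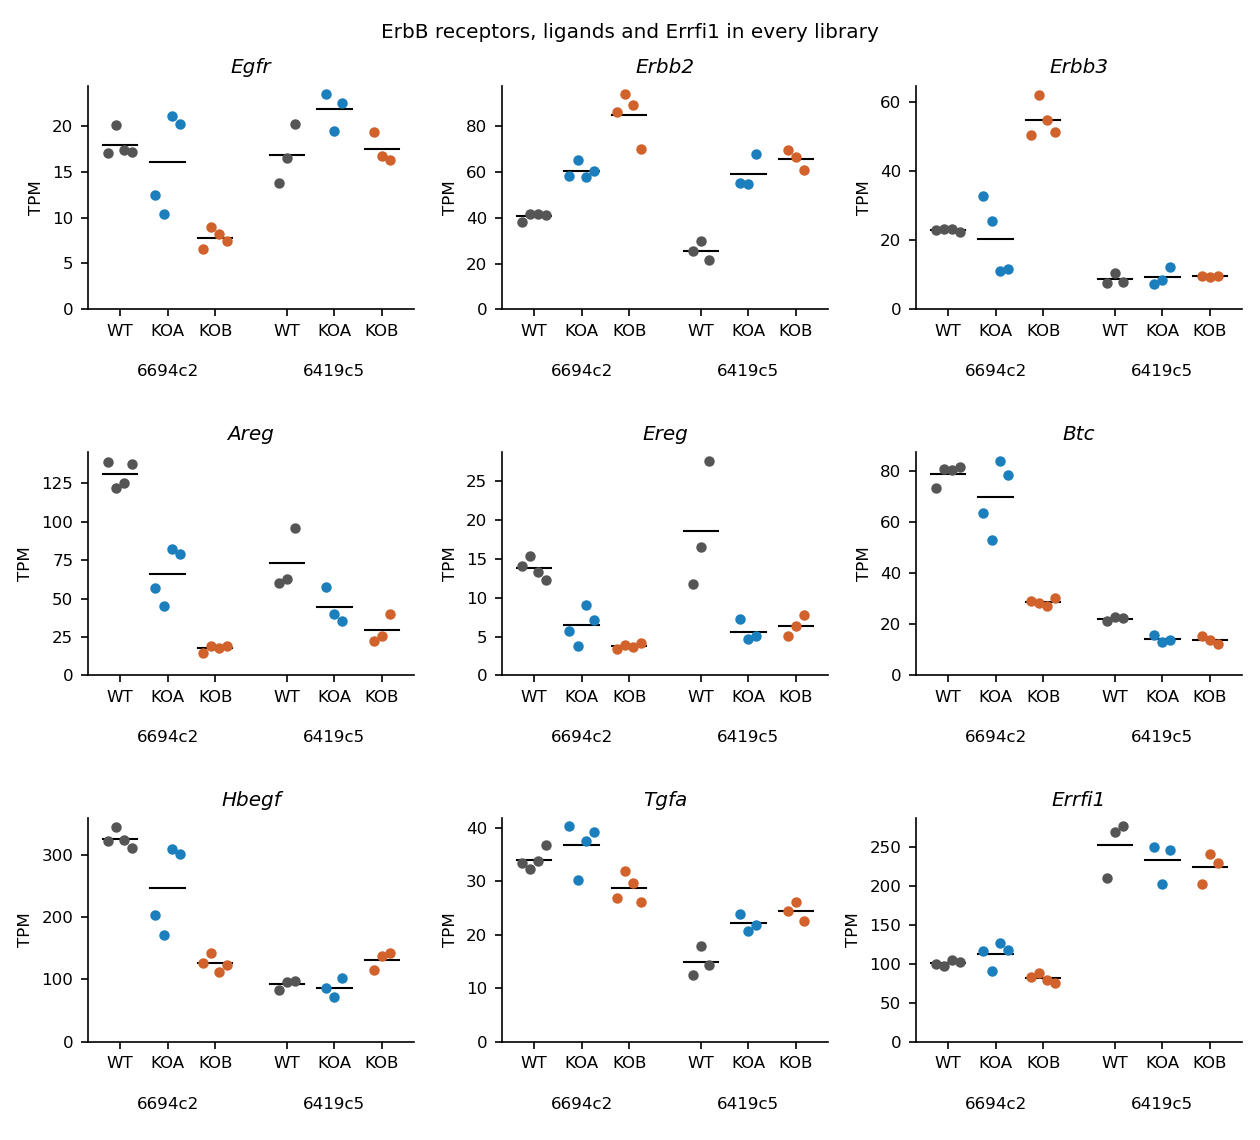
TPM (linear axis from 0) of the 9 tested members in each of the 21 libraries, by clone and line; points are libraries and bars are means of a line. Areg and Ereg lie below every WT library of their clone in all 14 KO libraries and Erbb2 above, while Hbegf lies below WT in the 8 KO libraries of 6694c2 and above WT in 4 of the 6 KO libraries of 6419c5. The share of all tested genes with no such overlap is not given.

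Areg encodes amphiregulin, a ligand of the EGF receptor that is known as a product of injured and transformed epithelia. In 6694c2 it measured 139, 122, 125 and 137 TPM over the WT libraries, 56.6, 45.0, 82.3 and 79.1 TPM over KOA and 14.3, 19.3, 17.8 and 19.4 TPM over KOB. All 8 KO libraries were lower than any WT library, and the KOB libraries lay far below those of KOA, with a mean 0.135 times that of WT. In 6419c5 it measured 59.9, 63.1 and 96.0 TPM over the WT libraries, 57.9, 40.1 and 35.3 TPM over KOA and 22.4, 25.7 and 39.9 TPM over KOB. All 6 KO libraries were again lower than any WT library, KOA library 1 by a small margin. The KO effect on the log2(TPM + 1) scale was -1.92 ± 0.18 (adjusted p = 2.35e-07) in 6694c2 and -0.999 ± 0.21 (adjusted p = 8.46e-04) in 6419c5, each by limma with its SE. In 6419c5 the call was lost by limma with the KO lines pooled into 1 group (adjusted p = 0.124; range over alternatives 2.43e-04 to 0.400).

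Ereg encodes epiregulin, which binds the EGF receptor and ERBB4 and is encoded next to amphiregulin. In 6694c2 its level was 14.0, 15.4, 13.3 and 12.3 TPM over the WT libraries, 5.72, 3.82, 9.05 and 7.17 TPM over KOA and 3.46, 3.91, 3.65 and 4.16 TPM over KOB. In 6419c5 the level was 11.7, 16.6 and 27.5 TPM over the WT libraries, 7.25, 4.66 and 5.01 TPM over KOA and 5.02, 6.34 and 7.75 TPM over KOB. The WT libraries of 6419c5 spread widely, with the third far above the others, yet every KO library of both clones lay below the lowest WT library of its clone. The KO effect was -1.33 ± 0.19 (adjusted p = 3.01e-05) in 6694c2 and -1.42 ± 0.22 (adjusted p = 5.48e-05) in 6419c5, and the clones did not pass the test of a difference, 0.10 ± 0.29 (adjusted p = 0.838). Without WT library 3 that difference was -0.21 (adjusted p = 0.605), of the other sign.

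Btc encodes betacellulin, a ligand of the EGF receptor and ERBB4 that was first found in a line of pancreatic beta cell tumours. In 6694c2 its level was 73.2, 80.6, 80.2 and 81.6 TPM over the WT libraries, 63.5, 52.9, 83.8 and 78.2 TPM over KOA and 29.0, 28.3, 27.2 and 30.3 TPM over KOB. KOA libraries 1 and 2 lay below WT, libraries 3 and 4 lay within or above it, and all 4 KOB libraries lay far below. In 6419c5 it measured 21.2, 22.7 and 22.5 TPM over the WT libraries, 15.95, 13.0 and 13.9 TPM over KOA and 15.5, 14.0 and 12.4 TPM over KOB, with all 6 KO libraries below WT. Its KO effect came to -0.81 ± 0.10 (adjusted p = 2.97e-06) in 6694c2 and -0.62 ± 0.11 (adjusted p = 1.98e-04) in 6419c5. The call in 6419c5 was lost by limma with the KO lines pooled into 1 group (adjusted p = 0.134; range over alternatives 4.36e-06 to 0.359). That fit takes 1 spread over both clones. KOB against KOA was -1.23 ± 0.11 (adjusted p = 7.73e-08) in 6694c2 and -0.03 ± 0.13 (adjusted p = 0.900) in 6419c5 by limma.

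These 3 ligand genes and Epgn, which encodes epigen, lie together on chromosome 5 in the build GRCm38.p6, in the order Epgn, Ereg, Areg and Btc from 91027517 to 91402994, a span of 375478 bases. Gaps of 39404 bases between Epgn and Ereg and of 45949 bases between Ereg and Areg held no other RefSeq gene, and the 208828 bases between Areg and Btc held 2 that encode no protein. Epgn is transcribed from the same strand as Ereg and Areg, and was at 0 TPM in 6 libraries and at most 0.302 TPM in the others. It did not pass the filter of 1 TPM in 3 libraries and was not tested. RefSeq promoter entries of GRCm38.p6 matched 7 of the 10 members. The 250 bases before the start of the 2 ligand genes of this cluster that fell and had an entry, and of Erbb2, which rose, are given to show what stands before the genes that moved in both clones. Areg is on the plus strand at chr5:91139349-91139598, Btc on the minus strand at chr5:91402995-91403244 and Erbb2 on the plus strand at chr11:98412234-98412483, each written 5′ to 3′ along its gene, with matches to the motifs named next in capitals.
Areg: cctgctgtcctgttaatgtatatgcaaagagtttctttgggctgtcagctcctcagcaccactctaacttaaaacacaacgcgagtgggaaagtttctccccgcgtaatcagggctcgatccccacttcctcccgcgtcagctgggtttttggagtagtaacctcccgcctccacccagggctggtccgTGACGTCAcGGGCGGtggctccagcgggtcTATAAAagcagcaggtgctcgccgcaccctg
Btc: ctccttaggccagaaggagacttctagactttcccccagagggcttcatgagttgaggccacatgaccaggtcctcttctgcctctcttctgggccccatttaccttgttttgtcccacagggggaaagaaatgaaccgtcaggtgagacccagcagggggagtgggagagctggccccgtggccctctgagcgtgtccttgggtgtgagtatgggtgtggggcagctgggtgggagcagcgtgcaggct
Erbb2: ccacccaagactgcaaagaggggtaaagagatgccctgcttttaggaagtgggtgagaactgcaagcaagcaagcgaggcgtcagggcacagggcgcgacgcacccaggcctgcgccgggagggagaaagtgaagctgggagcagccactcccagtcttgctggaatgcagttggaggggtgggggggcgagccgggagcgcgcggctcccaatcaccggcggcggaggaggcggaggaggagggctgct
The motifs searched on both strands were those of AP-1 (TGA, any base, then TCA), the cAMP response element (TGACGTCA), the GC box (GGGCGG), the TATA box (TATAAA) and the gamma-activated site (TTCNNNGAA), none of which overlapped another in these 3 promoters. They occurred in 6.87%, 1.62%, 32.9%, 13.0% and 7.18% of 27025 promoters of the same length. The Areg promoter held a cAMP response element 61 to 54 bases before the start, a GC box 52 to 47 bases before it and a TATA box 31 to 26 bases before it. The windows of Btc and Erbb2 held no match, and their GC content was 59.6% and 66.0%, against 57.2% for Areg and a median of 52.0% over all promoters. Among the other members whose entries were used, Egfr had a GC box, Tgfa 2 GC boxes and Epgn a TATA box. Of the start sites of Errfi1, the second held a cAMP response element, 3 GC boxes and a TATA box, and the first held no match.

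Hbegf encodes heparin-binding EGF, a ligand of the EGF receptor and ERBB4, and was the most abundant ligand mRNA in every line. In 6694c2 it measured 321, 345, 323 and 311 TPM over the WT libraries, 203, 172, 310.1 and 301 TPM over KOA and 125, 142, 111 and 123 TPM over KOB. All 8 KO libraries were lower than any WT library, KOA libraries 3 and 4 only just. In 6419c5 it measured 83.6, 96.0 and 97.9 TPM over the WT libraries, 85.3, 71.7 and 102 TPM over KOA and 116, 137 and 142 TPM over KOB, where KOA overlapped WT and all 3 KOB libraries lay above it. The KO effect was -0.91 ± 0.13 (adjusted p = 3.18e-05) in 6694c2 and, without passing, 0.20 ± 0.15 (adjusted p = 0.322) in 6419c5. The effects differed by -1.10 ± 0.20 (adjusted p = 5.27e-04).

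Tgfa encodes transforming growth factor alpha, which binds the EGF receptor alone of this family. In 6694c2 its level was 33.3, 32.2, 33.8 and 36.7 TPM over the WT libraries, 40.4, 30.2, 37.5 and 39.1 TPM over KOA and 26.9, 31.9, 29.7 and 26.0 TPM over KOB. The KOA libraries lay on both sides of WT and the KOB libraries all below it by a small margin, and the KO effect was not called (-0.07 ± 0.09, adjusted p = 0.581). In 6419c5 the level was 12.4, 17.9 and 14.3 TPM over the WT libraries, 23.8, 20.7 and 21.7 TPM over KOA and 24.5, 26.1 and 22.5 TPM over KOB. All 6 KO libraries there lay above the highest WT library, with a KO effect of 0.62 ± 0.10 (adjusted p = 1.19e-04) and a difference between the clones of -0.69 ± 0.14 (adjusted p = 0.00111).

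Summed over the 6 ligand genes, ligand mRNA came to 583 ± 8.46 TPM for WT, 425 ± 106 TPM for KOA and 204 ± 15.2 TPM for KOB of 6694c2 (4 libraries a line, SD). In 6419c5 the sums were 221 ± 35.1, 173 ± 20.5 and 206 ± 21.02 TPM (3 libraries a line, SD), which overlapped between the 3 lines. The 6694c2 KOB libraries (189 to 225 TPM) thus held about the ligand mRNA of the 6419c5 lines, while no 6694c2 WT library was below 576 TPM. The share of Areg was 22.5 ± 1.67% for WT, 15.4 ± 0.417% for KOA and 8.68 ± 1.08% for KOB of 6694c2 (4 libraries a line, SD), and 32.7 ± 4.09%, 25.7 ± 5.36% and 14.1 ± 3.17% in 6419c5 (3 libraries a line, SD). Hbegf made up between 42.2% (6419c5 WT) and 64.0% (6419c5 KOB) on average, and the share of Tgfa was 5.84 ± 0.385% in WT and 14.0 ± 1.23% in KOB of 6694c2.

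**Figure D2:**
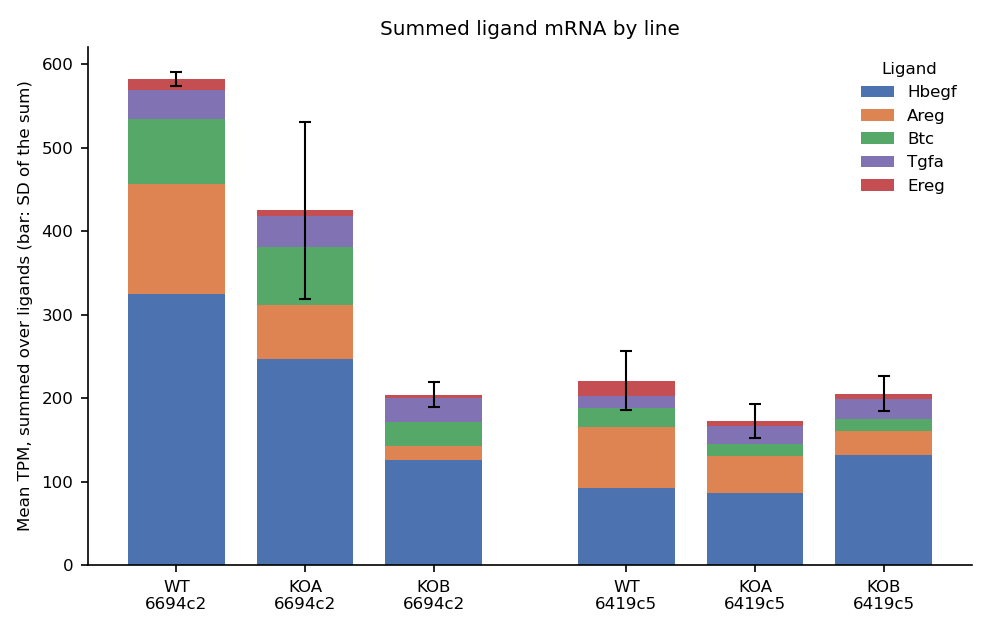
Mean TPM of the ligand genes stacked by line (linear axis from 0; Epgn, at most 0.302 TPM, is not drawn), with error bars for the SD of the summed level over 4 libraries (6694c2) or 3 (6419c5). The sum is 583 TPM in 6694c2 WT and 204 in 6694c2 KOB, beside 173 to 221 TPM in the lines of 6419c5.

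Macrophages and fibroblasts are known to make Areg, Ereg and Hbegf as well, so the markers of both were measured beside the ligands. Of 15 macrophage and dendritic cell markers 14 were tested. Their summed level was 194 to 1446 TPM over the WT libraries, 191 to 1038 TPM over KOA and 73.9 to 378 TPM over KOB of 6694c2. Library 2 alone set the top of that WT line, with the others at 194 to 354 TPM. In 6419c5 the ranges were 1014 to 2733, 223 to 4699.8 and 246 to 381 TPM. KOA library 2 alone set the top there, with libraries 1 and 3 at 320 and 223 TPM, below every WT library. Of the 14, 3 were called lower in the KO effect (15.0% of all tested genes) and 8 in KOB against WT (14.7%). The 12 fibroblast and pericyte markers summed to 251 to 378 TPM over the WT libraries, 248 to 919 TPM over KOA and 76.5 to 129 TPM over KOB of 6694c2. There 2 of the 12 were called lower in the KO effect (13.5% of all tested genes). By line 8 were called lower in KOB (19.4%) and 3 higher in KOA (15.2%). In 6419c5 they summed to 1246 to 2099, 699.5 to 876 and 1723 to 2529 TPM, with 6 of the 12 called lower in the KO effect (15.0% of all tested genes). The lines parted there too, with 8 called lower in KOA (12.7%). In KOB 4 were called lower (14.7%) and 3 higher (28.5%). No marker of either list was at 0 throughout a line, and the part of either cell type in the ligand levels was not tested. In bulk RNA, fewer cells of a type and less RNA per cell cannot be told apart.

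Other marker lists moved with the lines at lower levels. Markers of skin epithelium summed to 141 to 159 TPM over the WT libraries, 146 to 199.8 TPM over KOA and 203 to 243 TPM over KOB of 6694c2, and to 40.3 to 47.6, 44.9 to 76.9 and 74.3 to 115 TPM in 6419c5. KOB lay above WT in both clones, as Erbb2 did, but KOA overlapped WT, where Erbb2 did not. Granulocyte and mast cell markers summed to 13.9 to 22.8, 24.0 to 74.0 and 25.2 to 44.2 TPM in WT, KOA and KOB libraries of 6694c2 and to 23.7 to 75.9, 39.6 to 53.0 and 138 to 207 TPM in 6419c5, highest in the KOB line where Hbegf was above WT. Both KO lines of 6694c2 also lay above WT in these markers, where Hbegf lay below it. Acinar and islet markers summed to 57.8 to 60.4, 23.9 to 55.6 and 75.2 to 115 TPM in the same order for 6694c2 and to 18.6 to 21.9, 3.54 to 8.10 and 2.45 to 3.34 TPM for 6419c5, where all KO libraries lay below WT, as for Btc. In 6694c2 KOB these markers lay above WT, where Btc lay below it. Only 1 of the 10 acinar and islet genes was tested. Cpa1, Ptf1a, Ins1, Ins2 and Gcg of that list were at 0 in every library. Endothelial markers ran from 2.18 to 22.3 TPM and those of T and NK cells from 2.99 to 12.5 TPM over all libraries. The part of these cell types in the levels of the members was not tested.

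Egfr (chromosome 11, 16752203 to 16913907, GRCm38.p6) encodes the EGF receptor, which binds all of the ligands above. In 6694c2 it measured 17.1, 20.1, 17.4 and 17.2 TPM over the WT libraries, 12.4, 10.4, 21.1 and 20.2 TPM over KOA and 6.58, 8.98, 8.23 and 7.45 TPM over KOB. All 4 KOB libraries lay below WT, and the KOA libraries split, 1 and 2 below every WT library and 3 and 4 above. In 6419c5 it measured 13.8, 16.5 and 20.2 TPM over the WT libraries, 23.5, 19.4 and 22.5 TPM over KOA and 19.4, 16.7 and 16.3 TPM over KOB, which overlapped. The KO effect was -0.66 ± 0.15 (adjusted p = 0.00200) in 6694c2, where it was lost with the KO lines pooled into 1 group (-0.66, adjusted p = 0.0538; range over alternatives 1.06e-05 to 0.612). It was 0.21 ± 0.17 (adjusted p = 0.338) in 6419c5, and the effects differed by -0.87 ± 0.23 (adjusted p = 0.00819).

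Erbb2 (chromosome 11, 98412484 to 98437716) was the receptor gene with the highest level in every line. Its levels in 6694c2 were 38.4, 41.8, 41.6 and 41.1 TPM over the WT libraries, 58.2, 65.3, 57.9 and 60.7 TPM over KOA and 86.2, 94.0, 89.5 and 70.0 TPM over KOB. In 6419c5 they were 25.4, 29.7 and 21.5 TPM over the WT libraries, 55.1, 54.8 and 68.0 TPM over KOA and 69.7, 66.5 and 60.9 TPM over KOB. Each of the 14 KO libraries lay above every WT library of its clone, and the means of the KO lines were 1.49 to 2.57 times that of WT. For the KO effect the fit gave 0.80 ± 0.09 (adjusted p = 1.22e-06) in 6694c2 and 1.26 ± 0.10 (adjusted p = 2.51e-08) in 6419c5. The median changes of all tested genes were 0.07 and 0.08, and were not subtracted from these effects. The clones differed by -0.47 ± 0.13 (adjusted p = 0.0128), a call that was gone once WT library 3 of 6419c5 was left out (-0.35, adjusted p = 0.0552; range over alternatives 0.00372 to 0.866).

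Duct-like tumour cell markers moved with Erbb2 in 6419c5. Their summed level there was 6128 to 8336 TPM over the WT libraries, 14626 to 16321 TPM over KOA and 13256 to 17322 TPM over KOB. In the KO effect 7 of the 12 were called higher and 1 lower, where 26.5% and 15.0% of all tested genes were. In 6694c2 the sums overlapped, at 7739 to 9279.6 TPM over the WT libraries, 6839 to 9239 TPM over KOA and 7998 to 9247 TPM over KOB, while Erbb2 did not overlap. There 5 of the 12 were called higher and 2 lower, where 23.9% and 13.5% of all tested genes were. The part of cell make-up in the level of Erbb2 was not tested.

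Erbb3 (chromosome 10, 128567523 to 128589635) encodes the receptor of the neuregulins that signals through its partners. In 6694c2 it measured 22.8, 23.3, 23.2 and 22.4 TPM over the WT libraries, 32.7, 25.6, 11.1 and 11.7 TPM over KOA and 50.5, 61.9, 54.9 and 51.4 TPM over KOB. The 4 WT libraries were nearly alike, KOA libraries 1 and 2 lay above them and libraries 3 and 4 below, and KOB lay above all. In 6419c5 it measured 7.70, 10.4 and 7.81 TPM over the WT libraries, 7.37, 8.61 and 12.4 TPM over KOA and 9.72, 9.28 and 9.59 TPM over KOB, which overlapped. Neither KO effect was called, at 0.45 ± 0.21 (adjusted p = 0.102) for 6694c2 and 0.12 ± 0.24 (adjusted p = 0.729) for 6419c5. In 6694c2 it was called without KOA library 3 (0.56, adjusted p = 0.0261) or without KOA library 4 (0.55, adjusted p = 0.0355), within a range over alternatives of 8.32e-05 to 0.905.

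The ratio of Erbb2 to Egfr mRNA was higher in each KO library than in any WT library of its clone. With both in TPM, it ran from 2.08 to 2.39 over the WT libraries of 6694c2, from 2.74 to 6.27 in KOA and from 9.40 to 13.1 in KOB. In 6419c5 it ran from 1.06 to 1.85 in WT, from 2.34 to 3.02 in KOA and from 3.59 to 3.97 in KOB. The ranges of WT, KOA and KOB did not overlap in either clone. Summed over the 3 receptors, the level was 81.6 ± 2.93 TPM for WT, 96.8 ± 6.43 TPM for KOA and 147 ± 15.2 TPM for KOB of 6694c2 (4 libraries a line, SD), and 51.0 ± 5.04, 90.6 ± 10.8 and 92.7 ± 6.03 TPM in 6419c5 (3 libraries a line, SD).

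Errfi1 (chromosome 4, 150853796 to 150868889) encodes MIG6, which binds the kinase domains of the receptors and blocks them, and which the receptors' own signalling is known to induce. In 6694c2 its level was 99.1, 96.3, 104 and 102 TPM over the WT libraries, 116, 90.1, 127 and 117 TPM over KOA and 82.4, 88.2, 78.8 and 74.8 TPM over KOB. In 6419c5 it was 210.2, 269 and 277 TPM over the WT libraries, 249.7, 203 and 246 TPM over KOA and 202, 241 and 229.7 TPM over KOB. The 6694c2 KOB libraries lay just below WT, and the other KO lines overlapped it. Its KO effect, not called in either clone, was -0.08 ± 0.09 (adjusted p = 0.533) in 6694c2 and -0.14 ± 0.10 (adjusted p = 0.315) in 6419c5. In 6419c5 it was called lower after median-of-ratios scaling (-0.22, adjusted p = 0.0310) and after quantile normalization (-0.26, adjusted p = 0.0313; range over alternatives 0.0310 to 0.846).

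The KO effects of the clones differed for 5 of the 9 members, Areg, Egfr, Erbb2, Hbegf and Tgfa. All 5 were lower in 6694c2 relative to 6419c5, where 15.6% of all tested genes were. Of the 9 members, 0 were called by limma as higher in 6694c2 relative to 6419c5 (0 at an unadjusted p under 0.05), where 13.0% of all tested genes were. For Areg the same direction was larger in 6694c2 (-0.92 ± 0.28, adjusted p = 0.0176), and for Erbb2 it was larger in 6419c5. The difference for Areg was lost when WT library 1 or 2 of 6419c5 was left out, at -0.80 (adjusted p = 0.0593) without library 1 and -0.84 (adjusted p = 0.0528) without library 2 (range over alternatives 0.00414 to 0.932). With the KO lines of a clone pooled into 1 group only Tgfa was called for the difference (-0.69, adjusted p = 0.0130; range over alternatives 1.12e-04 to 0.588).

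Taken line by line, Areg and Ereg were called lower and Erbb2 higher in all 4 KO lines. The share of all tested genes called the same way in all 4 lines is not given here, so this count has no background beside it. In 6694c2 KOA, 3 members were called lower (Areg, Ereg and Hbegf) and 1 higher, where 7.56% and 15.2% of all tested genes were (44.8% of the calls were higher after median-of-ratios scaling, against 66.7%). In 6694c2 KOB, 6 were called lower (Areg, Ereg, Hbegf, Btc, Egfr and Errfi1) and 2 higher (Erbb2 and Erbb3), where 19.4% and 29.2% were (49.9% of the calls were higher after median-of-ratios scaling, against 60.0%). In 6419c5 KOA, 3 were called lower (Areg, Ereg and Btc) and 2 higher (Erbb2 and Tgfa), where 12.7% and 19.1% were. In 6419c5 KOB the same 3 were called lower and Erbb2, Tgfa and Hbegf higher, where 14.7% and 28.5% were (49.2% of the calls were higher after median-of-ratios scaling, against 65.9%). The comparisons of both KO lines use the same WT libraries.

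**Figure D3:**
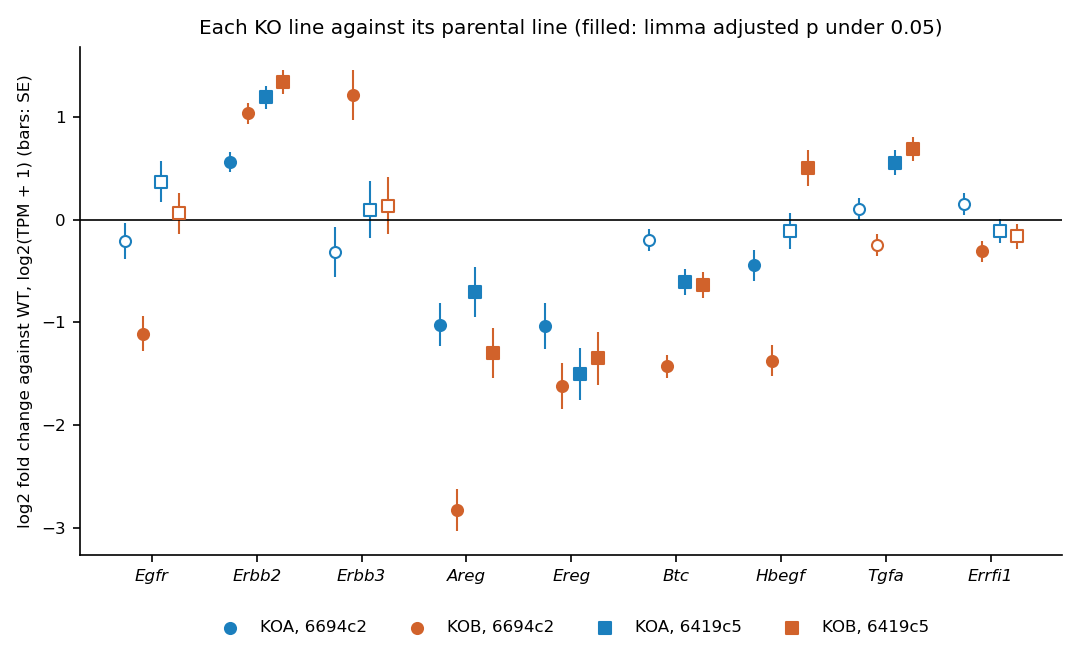
Log2 fold change of each tested member in each KO line against the WT line of its clone, with bars for the limma SE; filled symbols have an adjusted p under 0.05. Areg, Ereg and Erbb2 are filled in all 4 lines, and Areg in 6694c2 KOB reaches -2.82.

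By line, Areg changed by -1.02 ± 0.21 (adjusted p = 0.00183) in KOA and -2.82 ± 0.21 (adjusted p = 5.61e-09) in KOB of 6694c2. In 6419c5 it changed by -0.70 ± 0.24 (adjusted p = 0.0323) in KOA, a call lost without WT library 3 (-0.49, adjusted p = 0.167), KOA library 2 (-0.64, adjusted p = 0.0893), KOA library 3 (-0.56, adjusted p = 0.138) or the libraries highest in Mir6236 (-0.49, adjusted p = 0.174; range over alternatives 0.0125 to 0.174). In KOB it changed by -1.30 ± 0.24 (adjusted p = 3.10e-04). Ereg changed by -1.03 ± 0.22 (adjusted p = 0.00268) and -1.62 ± 0.22 (adjusted p = 8.35e-06) in KOA and KOB of 6694c2 and by -1.50 ± 0.26 (adjusted p = 2.05e-04) and -1.35 ± 0.26 (adjusted p = 3.90e-04) in those of 6419c5. Btc changed by -0.60 ± 0.13 (adjusted p = 0.00127) and -0.64 ± 0.13 (adjusted p = 5.88e-04) in KOA and KOB of 6419c5, and Tgfa by 0.55 ± 0.12 (adjusted p = 0.00175) and 0.69 ± 0.12 (adjusted p = 1.80e-04). In 6694c2 KOB Tgfa was -0.24 ± 0.10 (adjusted p = 0.0615), which passed after median-of-ratios scaling (-0.32, adjusted p = 0.00299; range over alternatives 0.00299 to 0.157). Egfr was 0.06 in 6419c5 KOB and -0.06 after median-of-ratios scaling. Erbb2, of the other direction, changed by 0.56 ± 0.10 (adjusted p = 5.85e-04) and 1.03 ± 0.10 (adjusted p = 1.29e-07) in 6694c2 and by 1.19 ± 0.12 (adjusted p = 4.83e-07) and 1.34 ± 0.12 (adjusted p = 8.96e-08) in 6419c5.

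Some single-line values turned on the split of 6694c2 KOA or on 1 library. The call of Hbegf in 6694c2 KOA (-0.44 ± 0.15, adjusted p = 0.0441) was lost in 16 of 33 alternatives, among them leaving out any 1 of the 4 WT libraries or KOA library 1 or 2 (-0.29 to -0.46, adjusted p = 0.0693 to 0.129; range over alternatives 4.36e-04 to 0.608). In KOB it was -1.37 ± 0.15 (adjusted p = 7.36e-07). In 6419c5 KOB Hbegf changed by 0.50 ± 0.18 (adjusted p = 0.0286), which was lost without WT library 1 (0.43, adjusted p = 0.0944), KOB library 2 (0.47, adjusted p = 0.0787) or KOB library 3 (0.44, adjusted p = 0.0940). That call was also lost after median-of-ratios scaling (0.37, adjusted p = 0.0506), which moved the median of all genes by -0.11 in this comparison, and after quantile normalization (0.31, adjusted p = 0.140; range over alternatives 0.00185 to 0.140). Egfr in 6694c2 KOA was -0.21 with all libraries, -0.61 (adjusted p = 0.00731) without libraries 3 and 4 and 0.20 (adjusted p = 0.293) without libraries 1 and 2. Erbb3 in the same line was -0.31 with all libraries, 0.32 (adjusted p = 0.178) without libraries 3 and 4 and -0.95 (adjusted p = 2.04e-04) without libraries 1 and 2. Btc there was -0.20 with all libraries, -0.44 (adjusted p = 0.00581) without libraries 3 and 4 and 0.04 (adjusted p = 0.780) without libraries 1 and 2, and it was called after median-of-ratios scaling (-0.30, adjusted p = 0.0229; range over alternatives 0.00581 to 0.780). In libraries 1 and 2 of KOA, Egfr and Btc were thus lower and Erbb3 higher than in libraries 3 and 4, as they were in KOB against KOA. Cell type markers parted these libraries too. Macrophage and dendritic cell markers summed to 191 and 389 TPM in libraries 1 and 2 and to 884 and 1038 TPM in libraries 3 and 4. Duct-like tumour cell markers summed to 9239 and 8991 TPM and to 6839 and 7083 TPM. The part of cell make-up in this split was not tested. In 6694c2 KOB the remaining changes were -1.11 ± 0.17 (adjusted p = 3.44e-05) for Egfr, 1.21 ± 0.24 (adjusted p = 4.17e-04) for Erbb3 and -1.43 ± 0.11 (adjusted p = 8.97e-09) for Btc. Errfi1 there was -0.31 ± 0.10 (adjusted p = 0.0201), which was lost without KOB library 4, the library of its line highest in Mir6236 (-0.27, adjusted p = 0.0561; range over alternatives 1.47e-04 to 0.0561).

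The KO lines of 6694c2 differed from each other in all 9 tested members. KOB was lower than KOA in 7, where 22.9% of all tested genes were, and higher in Erbb2 and Erbb3, where 23.6% were. Among these were -1.80 ± 0.21 (adjusted p = 1.51e-06) for Areg, 1.52 ± 0.24 (adjusted p = 5.18e-05) for Erbb3 and -1.23 ± 0.11 (adjusted p = 7.73e-08) for Btc. The difference in Ereg (-0.58 ± 0.22, adjusted p = 0.0383) was lost with any of 6 single libraries left out (KOA 1, 3 or 4, or KOB 1, 2 or 3), at -0.42 to -0.62 with adjusted p from 0.0504 to 0.142 (range over alternatives 6.80e-05 to 0.469). In 6419c5 the KO lines differed in 1 member, Hbegf, which was higher in KOB (0.61 ± 0.18, adjusted p = 0.0231), where 12.7% of all tested genes were (49.8% of the calls were higher after median-of-ratios scaling, against 72.7%). That call was lost without KOA library 1 or 2 or KOB library 2 or 3 (0.49 to 0.61, adjusted p = 0.0618 to 0.0994). By limma 0 members were called lower in 6419c5 KOB than in KOA (1 at an unadjusted p under 0.05), where 4.76% of all tested genes were. Areg was that gene (-0.59 ± 0.24, adjusted p = 0.0992), and it was called after median-of-ratios scaling (-0.67, adjusted p = 0.0494), with array weights and without KOB library 3 (-0.83, adjusted p = 0.0366), within a range over alternatives of 0.0366 to 0.348. Erbb3 was 0.04 in the same comparison and -0.03 after median-of-ratios scaling.

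The parental lines of the clones themselves differed in most members. In WT of 6694c2, 6 of the 9 were called higher than in WT of 6419c5, where 21.5% of all tested genes were, and Errfi1 was called lower, where 32.0% were (50.5% of the calls were higher after median-of-ratios scaling, against 40.1%). The 6 were Hbegf (1.81 ± 0.17, adjusted p = 7.04e-08), Btc (1.79 ± 0.12, adjusted p = 1.42e-09), Erbb3 (1.32 ± 0.26, adjusted p = 3.55e-04), Tgfa (1.15 ± 0.11, adjusted p = 1.54e-07), Areg (0.86 ± 0.23, adjusted p = 0.00346) and Erbb2 (0.66 ± 0.11, adjusted p = 4.98e-05). Errfi1 was at 100.5 ± 3.48 TPM in 6694c2 and 252 ± 36.3 TPM in 6419c5 (SD, n = 4 and 3), which differed by -1.31 ± 0.11 (adjusted p = 3.51e-08). Egfr (0.10 ± 0.19, adjusted p = 0.672) and Ereg (-0.33 ± 0.24, adjusted p = 0.253) were not called. The parental line of 6419c5 thus had lower levels of 4 of the 5 tested ligand mRNAs and more of the inhibitor mRNA. In WT of 6694c2 the members ranked from Hbegf through Areg, Errfi1, Btc, Erbb2, Tgfa, Erbb3 and Egfr to Ereg, and the ranges of neighbours in that order did not overlap. In WT of 6419c5 the order was Errfi1, Hbegf, Areg, Erbb2, Btc, Ereg, Egfr, Tgfa and Erbb3, where all neighbours overlapped but Errfi1 with Hbegf, Areg with Erbb2 and Tgfa with Erbb3. The order also differed between lines of a clone: in 6694c2 KOB, Erbb2 (84.9 ± 10.4 TPM) came next after Hbegf, and Areg (17.7 ± 2.38 TPM) lay below Btc and Tgfa (SD, n = 4 each).

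Of the other receptor and ligand genes of the family, 3 of 6 were tested. Erbb4, the remaining receptor, was at 0 TPM in 18 of 21 libraries, and Egf itself was at 0.119 to 1.23 TPM. Nrg1 encodes neuregulin 1, a ligand of ERBB3, and fell in 6419c5, from 5.42 ± 0.719 TPM for WT to 2.81 ± 1.29 for KOA and 2.72 ± 0.462 for KOB (3 libraries a line, SD), a KO effect of -0.79 ± 0.26 (adjusted p = 0.0209). In 6694c2 the KO effect was not called (-0.24 ± 0.23, adjusted p = 0.441), but the KO lines parted, with 2.54 ± 0.166 TPM for WT, 5.38 ± 3.02 TPM for KOA and 0.557 ± 0.168 TPM for KOB (4 libraries a line, SD). Nrg1 fell in that KOB line by limma against WT (-1.19 ± 0.26, adjusted p = 9.51e-04) and against KOA (-1.91 ± 0.26, adjusted p = 1.04e-05). Nrg4, whose product binds ERBB4, rose in 6694c2 (0.53 ± 0.13, adjusted p = 0.00288), from 2.002 ± 0.354 TPM in WT to 5.26 ± 0.770 in KOB, with 2.02 ± 0.498 in KOA (SD, n = 4 each).

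Ligand shedding is the work of ADAM proteases and of the proteins that carry or inhibit them. Of 10 genes of ligand shedding, 1 was called higher and 2 lower in 6694c2, and 4 higher and 1 lower in 6419c5. In this and the lists below, the share of all tested genes was 23.9% higher and 13.5% lower in 6694c2 and 26.5% higher and 15.0% lower in 6419c5, and most of the counts lie near these shares. The medians of the shedding genes were -0.08 and 0.25, beside 0.07 and 0.08 over all tested genes. Adam17, whose product is the main sheddase of amphiregulin, was called in neither clone, at 0.04 ± 0.08 (adjusted p = 0.762) for 6694c2 and -0.14 ± 0.10 (adjusted p = 0.262) for 6419c5. Rhbdf2, which encodes an iRhom that brings ADAM17 to the cell surface, rose in 6419c5 from 26.0 ± 4.93 TPM for WT to 45.8 ± 3.97 for KOA and 62.2 ± 4.44 for KOB (3 libraries a line, SD; 1.02 ± 0.14, adjusted p = 1.71e-05). Rhbdf1 (0.42 ± 0.12, adjusted p = 0.00752), Adam19 (0.64 ± 0.19, adjusted p = 0.0112) and Adam10 (0.26 ± 0.09, adjusted p = 0.0286) rose there as well, and none of these 4 had a KO effect called in 6694c2. In 6419c5 KOB Rhbdf1, Adam19 and Adam10 were called higher (0.64, 0.97 and 0.30, adjusted p = 9.82e-04, 0.00170 and 0.0279). In KOA of that clone they were not called (0.20, 0.32 and 0.22, adjusted p = 0.279, 0.301 and 0.125). Adam19 was called lower in 6694c2 KOB (-0.59 ± 0.19, adjusted p = 0.0152). Adam12 (-0.77 ± 0.12, adjusted p = 5.96e-05) and Frmd8 (-0.22 ± 0.08, adjusted p = 0.0479), whose product stabilises the iRhom complex, fell in 6694c2. By line Adam12 was called in KOB (-1.29 ± 0.14, adjusted p = 4.30e-07), while KOA did not pass (-0.25 ± 0.14, adjusted p = 0.212). Frmd8 was likewise called in KOB (-0.56 ± 0.10, adjusted p = 1.13e-04), with KOA at 0.12 ± 0.10 (adjusted p = 0.425). Timp3, which encodes an inhibitor of ADAM17, rose in 6694c2 (0.59 ± 0.22, adjusted p = 0.0407) and fell in 6419c5 (-0.72 ± 0.25, adjusted p = 0.0291).

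Downstream of the receptors, of 17 adaptor and signalling genes 2 rose and 4 fell in 6694c2 (23.9% and 13.5% of all tested genes), while 4 rose and 4 fell in 6419c5 (26.5% and 15.0%). Gab1, which encodes a docking protein that links the receptors to PI3K, changed by -1.21 ± 0.16 (adjusted p = 1.05e-05) in 6694c2 and -0.47 ± 0.18 (adjusted p = 0.0477) in 6419c5. Eps8, a substrate of the EGF receptor, fell in both (-0.32 ± 0.07, adjusted p = 0.00234 and -0.77 ± 0.09, adjusted p = 1.56e-06), and Grb7, an adaptor of ERBB2 encoded next to it, rose in both (0.72 ± 0.15, adjusted p = 8.10e-04 and 0.65 ± 0.17, adjusted p = 0.00451). In 6694c2 KOA alone Grb7 was not called (0.37 ± 0.17, adjusted p = 0.127). Called in both clones as well were Plcg1, lower, and Stat3, higher, while Gab2 was called lower in 6694c2 and Nck1 lower and Grb2 and Shc1 higher in 6419c5. Of 20 genes of receptor turnover and inhibition, 5 were called higher and 4 lower in 6694c2, and 5 higher and 3 lower in 6419c5, near the shares of all tested genes. Rnf41, which encodes a ubiquitin ligase that limits ERBB3, rose by 0.38 ± 0.07 (adjusted p = 2.39e-04) in 6694c2 and 0.20 ± 0.08 (adjusted p = 0.0416) in 6419c5. In 6419c5 the rise lay in KOB (0.46 ± 0.09, adjusted p = 4.46e-04), with KOA at -0.05 ± 0.09 (adjusted p = 0.696). Also called were Cd2ap (higher) and Stam and Stam2 (lower) in both clones, Lrig3, Eps15 and Ptprj (higher) and Lrig1 and Sh3kbp1 (lower) in 6694c2, and Lrig2, Hgs and Rab7 (higher) and Socs5 (lower) in 6419c5. Of 20 genes that ERK signalling is known to induce, 1 was called higher and 8 lower in 6694c2, Epha2 itself among the latter, where 23.9% and 13.5% of all tested genes were, and 4 higher and 4 lower in 6419c5, where 26.5% and 15.0% were. By line, 11 were called lower in 6694c2 KOB (19.4% of all tested genes), and 2 higher (15.2%) and 2 lower (7.56%) in KOA. Their medians were -0.27 and 0.02, beside 0.07 and 0.08 over all tested genes. Dusp4, a phosphatase gene induced by ERK, fell in both clones (-1.19 ± 0.14, adjusted p = 4.57e-06 and -0.51 ± 0.17, adjusted p = 0.0206), Dusp5 fell in 6694c2 (-1.35 ± 0.18, adjusted p = 1.46e-05) and was 0.38 ± 0.21 (adjusted p = 0.164) in 6419c5, and Etv5 fell in 6419c5 (-0.92 ± 0.12, adjusted p = 1.14e-05) and was 0.03 ± 0.11 (adjusted p = 0.857) in 6694c2. The other calls in 6694c2 were Spry2, Spry4, Fosl1, Ier3 and Plaur lower and Ccnd1 higher, and those in 6419c5 Spred1 and Epha4 lower and Spry1, Phlda1, Myc and Plaur higher. In 6694c2 the fall of Dusp4 and Dusp5 lay in KOB, at 61.99 ± 0.980 and 64.6 ± 9.96 TPM, against 259.9 ± 48.6 and 281 ± 107 in KOA and 291 ± 32.5 and 337 ± 42.8 in WT (SD, n = 4 each).

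Genes next to the members were looked up after the values were known, within 200 kb. Around Erbb2, 7 other genes were tested, of which 3 were called higher (Ppp1r1b, Grb7 and Pgap3) and 1 lower (Ormdl3) in 6694c2 and 4 higher (Ppp1r1b, Grb7, Stard3 and Mien1) in 6419c5, where 23.9%, 13.5% and 26.5% of all tested genes were. Against WT in 6694c2 KOA only Ppp1r1b of these was called. Grb7 (0.37 ± 0.17, adjusted p = 0.127), Pgap3 (0.14 ± 0.14, adjusted p = 0.499) and Ormdl3 (-0.04 ± 0.10, adjusted p = 0.825) were called in KOB alone. Ppp1r1b, which encodes the phosphatase inhibitor DARPP-32, had means of 39.4, 98.7 and 223 TPM in WT, KOA and KOB of 6694c2. Its means in 6419c5 were 22.3, 91.7 and 100.2 TPM. It rose by 1.87 ± 0.17 (adjusted p = 1.65e-07) in 6694c2 and 2.07 ± 0.20 (adjusted p = 2.19e-07) in 6419c5, beside 0.80 and 1.26 for Erbb2. Mien1 overlaps the end of Erbb2 by 9 bases on the other strand and was 0.15 ± 0.08 (adjusted p = 0.183) in 6694c2 and 0.53 ± 0.10 (adjusted p = 2.49e-04) in 6419c5. Without a stated strand setting the reads of those 9 bases cannot be assigned to either gene. Around the ligand cluster 4 other genes were tested, of which Parm1, on the far side of Btc, was called higher in both clones (0.58 ± 0.13, adjusted p = 0.00196 and 0.44 ± 0.15, adjusted p = 0.0270). On the near side the KO effect was not called for Cxcl1 (-0.70 ± 0.49, adjusted p = 0.281 and -0.73 ± 0.57, adjusted p = 0.321), Cxcl2 (-0.81 ± 0.49, adjusted p = 0.208 and -0.24 ± 0.57, adjusted p = 0.768) or Mthfd2l (-0.19 ± 0.09, adjusted p = 0.0939 and -0.13 ± 0.10, adjusted p = 0.301). In 6694c2 KOB against WT Cxcl2 (-1.51 ± 0.57, adjusted p = 0.0339) and Mthfd2l (-0.31 ± 0.10, adjusted p = 0.0159) were called lower.

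**Figure D4:**
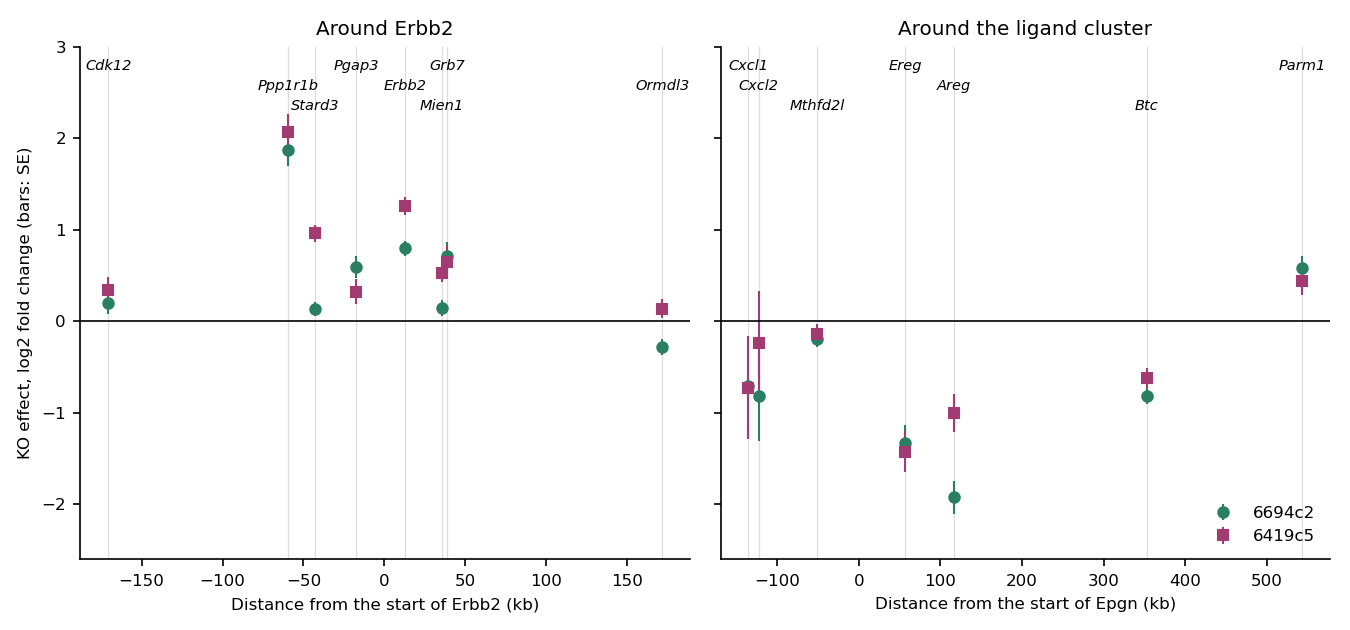
KO effect (log2 fold change, bars: limma SE) of the tested genes around Erbb2 and around the ligand cluster, placed by the distance of the gene's middle from the start of Erbb2 or of Epgn in kb, for each clone. Ppp1r1b, at 1.87 and 2.07, lies above Erbb2, and Ereg, Areg and Btc lie below 0, with Parm1 above 0 on the far side.

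Members were also compared by their pattern over the 21 libraries, which share clone and line, so that r is a description. Within 6694c2 (12 libraries) Pearson's r of log2(TPM + 1) between Areg and Hbegf was 0.97, and within 6419c5 (9 libraries) it was -0.48. Between Areg and Ereg it was 0.93 and 0.85, and between Erbb2 and Ereg -0.94 and -0.92. Tgfa and Erbb2 went from -0.47 in 6694c2 to 0.92 in 6419c5. Of all other tested genes with a name, Areg was most like Tiparp (r 0.937), Acvr1 (0.936) and Ctsl (0.936), and Ereg like Htr2a (0.923), Bnip2 (0.922) and Pcdhgc5 (0.921). For Btc they were Vangl2 (0.975), Usp11 (0.974) and Lmcd1 (0.970), and for Hbegf Pcdhga10 (0.960), Nrarp (0.959) and Maff (0.945). Tgfa was most like Brpf1 (0.951), Cdk18 (0.945) and Taf5 (0.941). The receptors were most like Srgap3 (0.955), Abcb1a (0.945) and Hspa4l (0.943) for Egfr, Myrf (0.984), Ppp1r1b (0.963) and Il17rc (0.955) for Erbb2, and Clybl (0.961), Car9 (0.958) and Arhgef39 (0.955) for Erbb3. Errfi1 was most like Srpr (0.983), Zfpm2 (0.982) and Adamts12 (0.978), and its r with them was 0.767 to 0.800 once each clone was centred on its mean.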

How the data were processed

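The 21 libraries are bulk RNA sequencing of sorted tumour cells. The authors deposited gene-level TPM, made with Salmon against mm10 per the submitters' processing notes. The Salmon version, the annotation and strand handling are not given in the sources used here. Columns were matched to the labels by clone and by WT or KO only (0 columns unmapped): line letters and library numbers are those of the columns. The 14337 genes that reached 1 TPM in 3 or more libraries were tested on log2(TPM + 1), which understates changes of low genes, in 1 limma fit over 6 groups (15 residual and 3.12 prior degrees of freedom; trend; two-sided), with Benjamini-Hochberg adjustment over all genes tested. R 4.3.3, limma 3.58.1, statmod 1.5.0, Python 3.11.15, numpy 2.4.6, pandas 2.3.3 and matplotlib 3.10.9 were used, and the fit was tested on simulated data. The members and gene lists were chosen with earlier results of these data known. Named were all members, of each list the up to 4 genes with the smallest p in either KO effect (the other list genes named were added after their values were seen), and for each member the 3 most similar genes by Pearson's r. Coordinates and promoters are from RefSeq GRCm38.p6, the assembly behind mm10. Same-numbered libraries showed little shared deviation (r -0.147 to 0.173, over 0.1 in 6 of 21 pairs). Pairs of other numbers had r of -0.335 to 0.294, over 0.1 in 12 of 54 pairs. With so few libraries a line this cannot exclude a pairing, and the numbers were not used to pair libraries in the main fit.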

Additional observations from a re-analysis of the deposited data

Results flagged for a closer look

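Within a line of 4 libraries, 3 of the 30 sets of values held a library set far from the rest, where chance alone would mark about 1 set in 20. All 3 lay in 6694c2 WT: Egfr at 20.1 TPM in library 2 (the others 17.1 to 17.4), Btc at 73.2 TPM in library 1 (the others 80.2 to 81.6) and Epgn at 0.156 TPM in library 1 (the others 0.0538 to 0.0572).

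For 5 members the KO effect differed between the clones by a test of that difference in limma (6694c2 less 6419c5, log2). The difference was -1.10 for Hbegf, lower in 8 of 8 KO libraries of 6694c2 and above the highest WT library in 4 of 6 of 6419c5. It was -0.92 for Areg, lower in all KO libraries of both clones. It was -0.87 for Egfr, below the lowest WT library in 6 of 8 KO libraries of 6694c2 and in 0 of 6 of 6419c5, and -0.69 for Tgfa, above the highest WT library in 6 of 6 KO libraries of 6419c5 and in 3 of 8 of 6694c2. It was -0.47 for Erbb2, higher in all KO libraries of both clones.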

How the results depend on the processing

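Of 90 member results over 10 comparisons, 56 were called. Of these, 34 kept their call in every alternative run, 22 lost it in at least 1 and 0 changed sign. The fits with the line as a random effect or the KO lines pooled covered only both KO effects and their difference. Among the calls of those comparisons, only Erbb2 in 6419c5 was kept in every alternative. The single-line and WT calls were not exposed to these fits. With the line as a random effect the counts of members called were 0 in 6694c2 (6 before), 1 in 6419c5 (5 before) and 0 for the difference (5 before), where limma gave 5, 3 and 1 at an unadjusted p under 0.05, and with the KO lines pooled 3 in 6419c5 and 1 for the difference. The calls of the KO effects lost by pooling, a fit with 1 spread over both clones, were those of Areg and Btc in 6419c5 and of Egfr in 6694c2. For KOB against KOA in 6419c5 the count was 2 with median-of-ratios size factors and 2 with array weights, and from 0 to 1 with single libraries left out. The fit with the library number as a replicate block kept 6, 5 and 5 members called for both KO effects and their difference. It lost Hbegf in 6694c2 KOA (-0.44, adjusted p = 0.0685) and Ereg between the KO lines of 6694c2 (-0.58, adjusted p = 0.0525) and changed no other call. The cause of these changes was not tested.

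Signs changed for 12 results, none of them called. With 1 library left out at a time, the difference of the KO effects ran from -0.21 to 0.37 for Ereg and from -0.015 to 0.18 for Errfi1, below 0 in both without 6419c5 WT 3. KOA against WT in 6419c5 ran from -0.094 (without KOA 3) to 0.24 for Erbb3 and from -0.24 to 0.014 (without KOA 2) for Hbegf. KOB against WT in 6419c5 ran from -0.065 (without WT 1) to 0.20 for Egfr. KOB against KOA in 6419c5 ran from -0.11 (without KOA 1) to 0.23 for Erbb3, from -0.11 to 0.046 (without KOA 1) for Btc and from -0.15 to 0.022 (without KOB 1) for Errfi1. WT against WT ran from -0.026 (without 6419c5 WT 1) to 0.23 for Egfr. Median-of-ratios scaling gave -0.060 for Egfr in 6419c5 KOB and -0.033 for Erbb3 between the KO lines of 6419c5, and quantile normalization -0.058 for Egfr in 6419c5 KOB. Array weights gave 0.076 for Egfr in 6694c2 KOA. Without the libraries highest in Mir6236 the difference for Ereg was -0.23. Chosen after the data were seen, leaving out 6694c2 KOA libraries 1 and 2 gave 0.20 for Egfr and 0.038 for Btc in that line. Leaving out libraries 3 and 4 gave 0.32 for Erbb3 there, and -0.071 for Ereg and -0.0054 for Errfi1 in the difference of the clones. Without read numbers, what depth limits could not be measured.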
